A study of Mus musculus with 74 samples.

Results

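The 10 genes described here make and load MHC class I molecules, and they were chosen by name: the heavy chains H2-K1 and H2-D1, the light chain B2m, the peptide transporter genes Tap1 and Tap2, the loading factor Tapbp, the immunoproteasome subunits Psmb8, Psmb9 and Psmb10, and the regulator Nlrc5. They are 10 of 17853 genes that the authors' 6 count tables list in at least 1 table, and all 10 are in all 6 tables and passed the filter on low counts in each. The libraries were MARS-seq libraries, which count tags from the 3' end of transcripts, made from sorted mTEChi, the medullary thymic epithelial cells with much MHC class II that make the nuclear regulator AIRE. Of 74 libraries, 73 could be placed in 21 groups. The labels do not say that each library came from a separate mouse, so p-values measure the spread between libraries, which may be technical in part.

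All mice were 4 to 7 weeks old and carried alleles of Aire. On C57BL/6 (B6), the null line had 3 Aire +/+, 5 Aire +/- and 4 Aire -/- libraries. The Y86C line had 3 +/+, 3 +/Y86C and 3 Y86C/Y86C libraries, and the C313X line had 3 +/+, 2 +/C313X and 3 C313X/C313X. The C442G line had 3 +/+, 5 +/C442G and 6 C442G/C442G. On NOD, a strain prone to autoimmune diabetes, the V303M line had 3 +/+, 3 +/V303M and 3 V303M/V303M. The other NOD table held 3 Aire +/- and 3 Aire -/- libraries, 4 +/C313Y libraries set against 5 +/+, and 3 -/C313Y libraries, with 1 null and 1 C313Y allele, set against 3 +/+. Of those 5 +/+ libraries, 2 are titled C313T. Each mutant group was set against the wild type of its own table and title form, except NOD Aire -/-, which was set against Aire +/-. The remaining B6 library, whose title and genotype label disagree, was left out of every group.

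MHC class I molecules carry short peptides from inside the cell to its surface, where CD8 T cells read them. The proteasome cuts proteins into peptides, and in the immunoproteasome the subunits encoded by Psmb8, Psmb9 and Psmb10 replace the constitutive catalytic subunits. TAP, built from the products of Tap1 and Tap2, pumps peptides into the endoplasmic reticulum, where tapasin, the product of Tapbp, holds empty class I molecules at the transporter. Interferons raise most of these genes in many cell types, and NLRC5 acts on their promoters. In the thymic medulla the pathway displays self peptides to maturing CD8 T cells.

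In the GENCODE annotation of build GRCm38, 7 of the 10 genes lay on chromosome 17, B2m on chromosome 2, and Psmb10 and Nlrc5 on chromosome 8. Tapbp (chr17:33915899-33929292, plus strand) overlapped Zbtb22 on the same strand by 3422 bp. Tap1 (chr17:34187553-34197225, plus strand) and Psmb9 (chr17:34181987-34187764, minus strand) stood head to head and overlapped by 212 bp. Stretches of DNA before the starts of genes that the results turn on are shown from RefSeq (GRCm38.p6), 5' to 3' on the plus strand: the 250 bases before the start of Tapbp, which rose in more comparisons than any other of the 10, and before those of B2m and H2-D1, and the 225 bases between the RefSeq starts of Psmb9 and Tap1. RefSeq's starts differ from those of the GENCODE spans: the stretches of Tapbp and H2-D1 lie inside those spans, and in RefSeq the starts of Psmb9 and Tap1 do not overlap. Capitals mark matches on either strand to the box CCAAT, to the letters TGACG of CRE-like sites, to the interferon response core GAAANNGAA or to the NF-kB-like site GGGNNTTCC.
Tapbp, chr17:33919228-33919477: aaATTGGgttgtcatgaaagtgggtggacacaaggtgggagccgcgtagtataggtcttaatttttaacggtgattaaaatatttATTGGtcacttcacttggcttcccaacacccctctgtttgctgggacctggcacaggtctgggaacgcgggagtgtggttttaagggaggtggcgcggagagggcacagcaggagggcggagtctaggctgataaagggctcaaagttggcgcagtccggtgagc
B2m, chr2:122147437-122147686: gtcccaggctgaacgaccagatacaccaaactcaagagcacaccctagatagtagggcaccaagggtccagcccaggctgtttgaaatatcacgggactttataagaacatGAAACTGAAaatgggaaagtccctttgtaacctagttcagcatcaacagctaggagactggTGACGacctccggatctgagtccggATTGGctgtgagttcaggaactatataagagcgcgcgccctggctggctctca
H2-D1, chr17:35262844-35263093: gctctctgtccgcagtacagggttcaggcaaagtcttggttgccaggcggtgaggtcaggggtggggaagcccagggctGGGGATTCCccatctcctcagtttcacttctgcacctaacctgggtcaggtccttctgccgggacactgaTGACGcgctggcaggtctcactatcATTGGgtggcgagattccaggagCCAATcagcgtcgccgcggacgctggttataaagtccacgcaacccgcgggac
Psmb9 to Tap1, chr17:34187331-34187555: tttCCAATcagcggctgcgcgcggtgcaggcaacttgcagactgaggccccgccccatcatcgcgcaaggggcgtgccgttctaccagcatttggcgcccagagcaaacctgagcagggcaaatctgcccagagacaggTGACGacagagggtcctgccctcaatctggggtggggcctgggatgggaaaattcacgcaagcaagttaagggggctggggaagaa

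Of these 4 stretches, that of B2m held a GAAANNGAA match, 139 bases before the start, and that of H2-D1 held a GGGNNTTCC match at 171. Both held TGACG and a CCAAT match within the last 101 bases before the start. The Tapbp stretch held CCAAT on the opposite strand at 248 and 165 bases before the start and none of the other 3 sets of letters. The stretch between Psmb9 and Tap1 held CCAAT at 222 and TGACG at 86 bases before the Tap1 start. RefSeq windows from 250 bases before to 50 after the start were matched for 8 of the 10 genes. Members are counted by gene, while the shares beside them are of windows. The windows of Tap1 and Psmb9 overlap and hold the same CCAAT and TGACG sites, which count for both genes. CCAAT was found in 6 of the 8 and in 37.4% of 32851 windows of 27025 genes, TGACG in 5 of 8 and 20.8%, GGGNNTTCC in 2 of 8 (H2-K1 and H2-D1) and 5.82%, GAAANNGAA in 1 of 8 and 8.56%, and TTCNNNGAA, a STAT-like site, in 1 of 8 (Psmb8) and 8.30%. A match describes the letters and is not evidence of binding. Variants of these sites with other letters, order or spacing were not searched, so a missing match does not show that a site is absent.

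Library totals ran from 1016619 to 7225403 counts, both in the V303M line. The sum of 13 mature mTEC markers ran from 5409 to 11317 CPM (counts scaled to the library total) over the 73 libraries, with Epcam between 101 and 545 CPM. Thymocyte markers summed to 108 to 375 CPM and macrophage and dendritic markers to 545 to 2160 CPM, with Lyz2 at a median of 766. The defining markers Rag2 and Xcr1 are listed in none of the 6 tables, which hold genes with a count of 6 or more in some library. Aire, the targeted gene, was not called lower in any of the 13 comparisons with control. It rose in 9 of them, by 0.39 (+/Y86C) to 1.32 (Y86C/Y86C) on the log2 scale. A 3' tag outside the changed part of the gene checks nothing about a null allele.

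CPM values divide by the library total. Log2 changes come from edgeR with TMM scaling, which centres most genes near no change, so a change on that scale can differ from the ratio of mean CPM. Each has its standard error (±), and calls are those with p under 0.05 after Benjamini-Hochberg adjustment across every gene tested. In bulk RNA, fewer cells of a type and less RNA per cell cannot be told apart.

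Over the 13 comparisons with control, 24 of 130 member changes were called, 22 higher and 2 lower. Of all tested genes, 49.6% were called either way in Y86C/Y86C, 42.6% in C442G/C442G, 36.6% in B6 Aire -/- and 26.5% in +/C442G. The share was 23.1% in C313X/C313X, 22.7% in -/C313Y, 17.4% in +/C313Y, 13.3% in NOD Aire -/- and at most 3.37% in the rest. Calls of the 10 genes are to be read beside these shares. Tapbp rose in 6 comparisons, H2-D1 and B2m in 4 each, Tap2 and Psmb10 in 2 each, and H2-K1, Psmb8, Psmb9 and Nlrc5 in 1 each, always in Y86C/Y86C for these last 4. Tap1 was called lower in 2 comparisons and higher in none of the 13. Dividing by library totals in place of TMM, an alternative chosen after seeing the data, kept 10 of the 22 rises and both falls and added 4 falls, with no called gene changing sign.

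**Figure D1:**
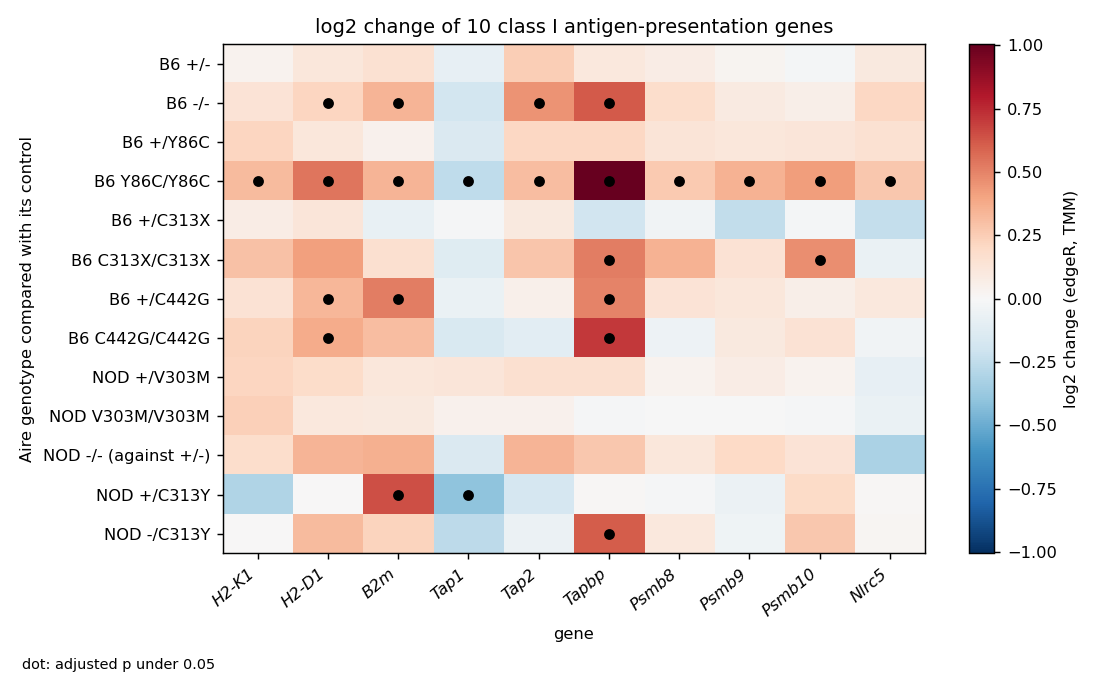
Log2 change (edgeR, TMM scaling) of the 10 genes (columns) in the 13 comparisons with control (rows), from blue (lower) to red (higher), with a dot where the adjusted p was under 0.05. The Tapbp column has 6 dots and the Tap1 column 2, and Y86C/Y86C is the row in which all 10 genes have one; with library totals in place of TMM, 3 of those 10 calls were left.

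Tapbp encodes tapasin, the chaperone that bridges class I molecules and TAP. In the B6 null line its level was 463, 475 and 455 CPM in Aire +/+, 516, 490, 482, 509 and 481 in Aire +/-, and 727, 649, 608 and 671 in Aire -/-. All 4 Aire -/- libraries lay above all 8 others. The log2 change against wild type was 0.62 ± 0.08 (adjusted p = 3.03e-07), a 1.53-fold rise, and against heterozygotes 0.51 ± 0.07 (adjusted p = 6.97e-07). Aire +/- libraries also lay above all wild types, but the difference of 0.11 ± 0.08 did not pass (adjusted p = 0.725, 95% interval -0.04 to 0.25).

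In the Y86C line Tapbp was at 302, 410 and 335 CPM in wild type, 372, 433.6 and 363 in +/Y86C and 603, 595 and 576 in Y86C/Y86C. The 3 homozygous libraries were close together and above the other 6. The rise of 1.01 ± 0.10 against wild type (adjusted p = 1.29e-09), 2.01-fold, was the largest change of any of the 10 genes in these comparisons. Against +/Y86C it was 0.80 ± 0.10 (adjusted p = 1.6e-07), and +/Y86C differed from wild type by 0.21 ± 0.10 (adjusted p = 0.311).

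In the C442G line the rise of Tapbp was called in heterozygotes too. Its wild-type libraries had 514, 605 and 587 CPM, its 5 +/C442G libraries 700, 693, 736, 787 and 757, and the 6 C442G/C442G libraries ran from 741 to 883 with a median of 831. Both mutant groups lay wholly above the wild types and overlapped each other. The changes were 0.50 ± 0.11 (adjusted p = 0.000884) and 0.71 ± 0.11 (adjusted p = 1.97e-06), and homozygotes against heterozygotes gave 0.21 ± 0.09 (adjusted p = 0.0951).

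In C313X/C313X, Tapbp stood at 1152, 1356 and 1302 CPM, against 1066, 956 and 1045 in wild type and 886 and 958 in +/C313X. The homozygous libraries lay above the other 5. The change was 0.51 ± 0.13 against wild type (adjusted p = 0.0155) and 0.71 ± 0.15 against heterozygotes (adjusted p = 0.0073). The first call was lost without wild-type library 6 (adjusted p = 0.0616), without homozygous library 10 (0.078) and with library totals (0.0725), and the second without heterozygous library 3 (0.0827).

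On NOD, Tapbp rose in the -/C313Y libraries, at 502, 468 and 506 CPM against 368, 363 and 320 in their wild type, with a change of 0.61 ± 0.14 (adjusted p = 0.00172). The groups did not overlap. The +/C313Y libraries had 455, 447, 380 and 424 CPM, inside the range of their 5 wild types (345 to 545, median 459), and a change of 0.01 ± 0.11. NOD Aire -/- libraries had 418, 478 and 407 CPM against 441.8, 392 and 369 in Aire +/-, which overlap, and a change of 0.27 ± 0.14 (adjusted p = 0.25, interval -0.01 to 0.54). In V303M/V303M the values of 526.4, 497 and 413 CPM overlapped 477, 565 and 448 in wild type, with a change of -0.01 ± 0.14.

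Tapbp was in the called-higher set in 6 of 13 comparisons, where the share of all tested genes called higher was 17.7% (B6 Aire -/-), 21.7% (Y86C/Y86C), 7.85% (C313X/C313X), 13.1% (+/C442G), 19.5% (C442G/C442G) and 9.83% (-/C313Y). Its CPM ranges lay apart in 7 comparisons, those 6 and B6 Aire +/-. H2-D1 also lay wholly higher in 7. The share of all genes lying wholly higher was 3.04% in Aire +/-, 15.4% in Aire -/-, 15.0% in Y86C/Y86C, 10.3% in C313X/C313X, 7.9% in +/C442G, 11.2% in C442G/C442G and 12.7% in -/C313Y. With library totals, 5 of the 6 calls held, where 13% (Aire -/-), 12.7% (Y86C/Y86C), 8.09% (+/C442G), 11.4% (C442G/C442G) and 7.02% (-/C313Y) of genes were called higher. Zbtb22, a zinc finger gene on the same strand that shares part of the Tapbp locus, was at 20.4 to 41.3 CPM on average in the groups and was not called in any comparison.

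Tap1 encodes one chain of the peptide transporter, and on TMM scaling it was called lower in Y86C/Y86C and +/C313Y. In the Y86C line its level was 319, 275 and 292 CPM in wild type, 270, 243 and 260 in +/Y86C and 211, 214 and 200 in Y86C/Y86C. The 3 genotypes did not overlap. The homozygotes' change was -0.26 ± 0.09 (adjusted p = 0.0165), a call lost without wild-type library 2 (0.0957) or homozygous library 9 (0.0667). In the table of +/C313Y, the 5 wild types held 506, 389, 393, 447 and 427 CPM and the 4 mutants 286, 323, 288 and 311. All 4 mutants lay below all 5 wild types, and the fall was 0.41 ± 0.10 (adjusted p = 0.00379), with 11.0% of genes called lower there and 27.9% in Y86C/Y86C.

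In B6 Aire -/-, NOD Aire -/- and -/C313Y, Tap1 was lower in CPM without a call on TMM scaling, whereas its mean was not lower in +/C313X, +/V303M or V303M/V303M (changes of -0.01, 0.12 and 0.04, with 0 calls). It was at 283, 276 and 297 CPM in wild type of the B6 null line and at 234, 254, 239 and 212 in Aire -/-, with a change of -0.18 ± 0.09 (adjusted p = 0.105). NOD Aire -/- libraries had 317, 301 and 328 CPM against 386, 411 and 367 in Aire +/-, and -/C313Y had 279, 301 and 321 against 374, 366 and 437.7. Neither pair of groups overlapped, and the changes were -0.15 ± 0.12 and -0.27 ± 0.12, with adjusted p of 0.534 and 0.121.

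Tap1 lay wholly below its control in CPM in 8 of 13 comparisons. The share of all genes doing so was 26.9% in B6 Aire -/-, 12.2% in +/Y86C, 44.6% in Y86C/Y86C, 31.2% in C313X/C313X, 29.7% in C442G/C442G, 29.3% in NOD Aire -/-, 10.1% in +/C313Y and 27.2% in -/C313Y. With library totals it was called lower in 5 comparisons, where 24.2% (B6 Aire -/-), 40.8% (Y86C/Y86C), 32.7% (C442G/C442G), 13.1% (+/C313Y) and 16.3% (-/C313Y) of genes were. In the homozygotes, 26.9% to 44.6% of genes thus shared the low CPM of Tap1.

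**Figure D2:**
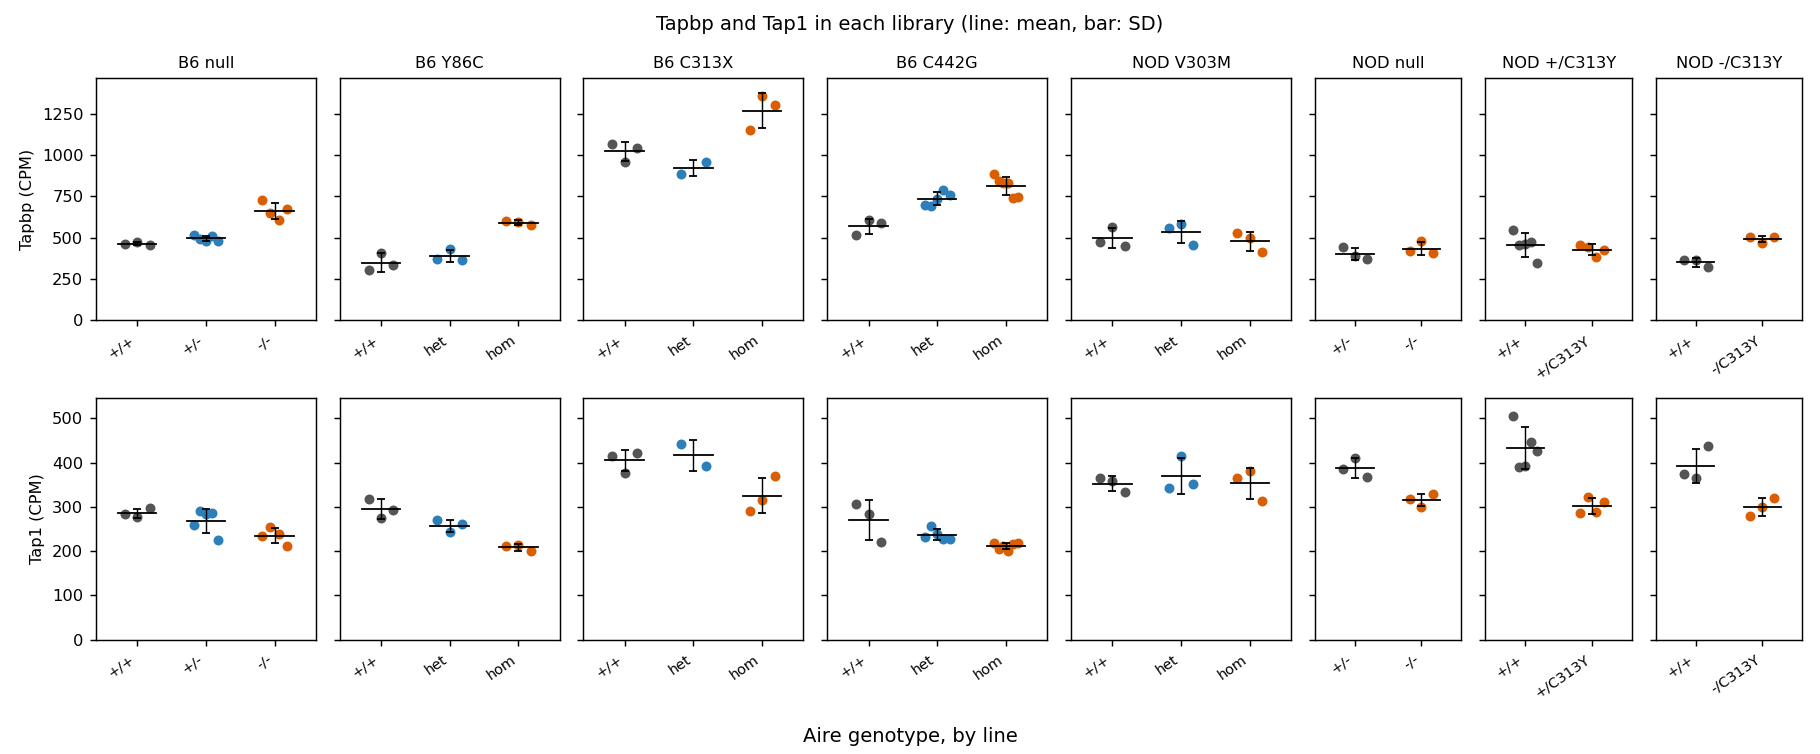
Tapbp (upper row) and Tap1 (lower row) in CPM in each of the 73 libraries, by line and genotype; points are libraries, lines means and bars SD. The mean of Tapbp is highest in the homozygotes of the 4 B6 lines (for example 576 to 603 CPM in Y86C/Y86C against 302 to 410 in wild type), while the mean of Tap1 is lowest there (200 to 214 against 275 to 319).

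The ratio of Tapbp to Tap1 reads within a library does not depend on the scaling, and it was computed after the values above had been seen, so it is given with no test. In the B6 null line it averaged 1.63 in wild type (1.53 to 1.72), 1.86 in Aire +/- and 2.84 in Aire -/- (2.54 to 3.17). In the Y86C line it averaged 1.20 in wild type (0.947 to 1.49), 1.52 in +/Y86C and 2.84 in Y86C/Y86C (2.79 to 2.88). Homozygotes of both lines lay wholly above their wild types, by 1.74 and 2.38 times in the means.

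The same ratio was 2.52 in wild type of the C313X line, 2.22 in +/C313X and 3.92 in C313X/C313X. In the C442G line it was 2.16, 3.11 and 3.84 in that order. NOD means were 1.03 for Aire +/- and 1.38 for Aire -/-, 1.06 in the wild types of +/C313Y and 1.41 in +/C313Y, and 0.903 against 1.65 for -/C313Y. In the V303M line the means stayed between 1.35 and 1.45. The mean ratio was higher than in control in 11 of 13 comparisons, and the ranges lay apart in 9, of which 8 were higher in the mutant and 1, +/C313X, lower. The pair joins the member most often called higher with the one called lower, so a raised ratio was built into the choice. Ratios of other pairs of genes were not computed, so how many would lie apart is not known.

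**Figure D3:**
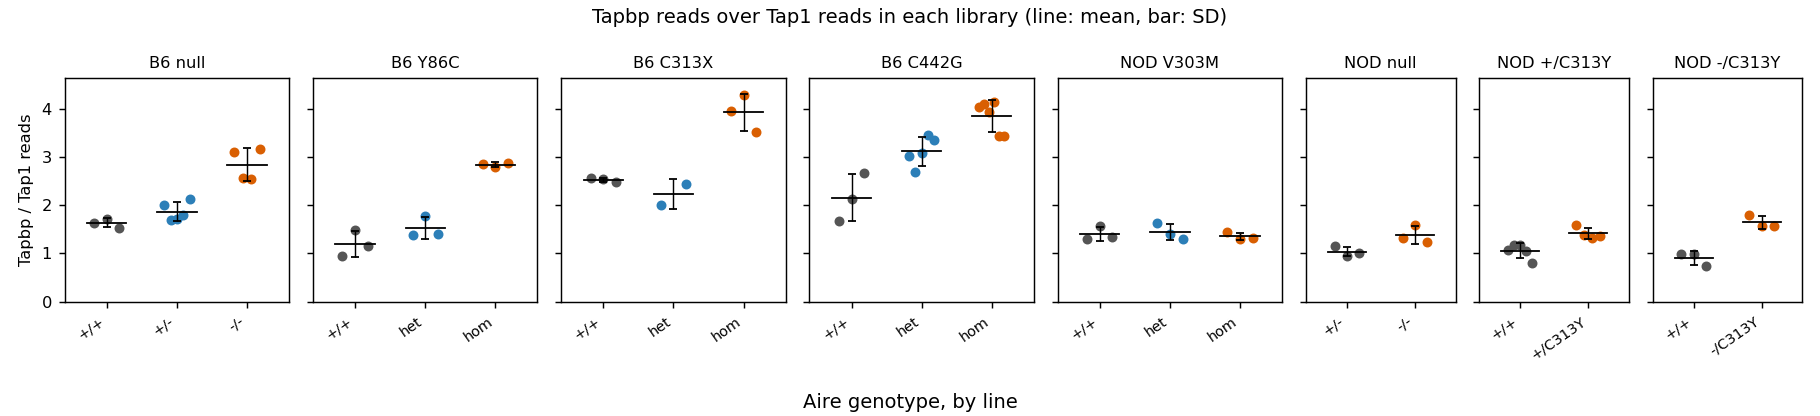
Ratio of Tapbp reads to Tap1 reads in each library, by line and genotype; points are libraries, lines means and bars SD. Y86C/Y86C libraries lie at 2.79 to 2.88 against 0.947 to 1.49 in wild type, while the 3 genotypes of the V303M line lie around means of 1.35 to 1.45.

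Tap2 encodes the other chain of the transporter and was called higher in B6 Aire -/- and Y86C/Y86C. In the B6 null line it was at 116, 115 and 113 CPM in wild type and 122, 165, 153 and 145 in Aire -/-, groups that lay apart, and it rose by 0.45 ± 0.10 (adjusted p = 0.000728). In Y86C/Y86C the values of 90.5, 116 and 122 CPM overlapped 106, 103 and 103 in wild type. There the change of 0.31 ± 0.11 was called (adjusted p = 0.0192), but it was 0.06 with library totals and was lost without homozygous library 5 (0.0826) or 9 (0.0828). In C442G/C442G, Tap2 ran from 114 to 145 CPM, median 133, against 195, 149 and 145 in wild type, with a change of -0.11 ± 0.13 that was called lower, at -0.31, with library totals only.

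B2m encodes the light chain shared by all class I molecules. In the B6 null line its level was 8446, 8514 and 9047 CPM in wild type and 10231, 9793, 10434 and 10574 in Aire -/-. The groups lay apart and the rise was 0.34 ± 0.07 (adjusted p = 0.000388). In the C442G line wild types had 10586, 11424 and 11156 CPM and +/C442G libraries 18040, 12714, 15595, 12298 and 13501, again wholly above. The change there was 0.51 ± 0.14 (adjusted p = 0.00709).

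B2m rose by 0.65 ± 0.17 in +/C313Y (adjusted p = 0.00732), with 13845, 7719, 10562 and 9404 CPM against 8547, 9417, 5551, 5433 and 6992. Of the 4 mutants, 2 lay above all 5 wild types, and the call was lost without mutant library 50 (0.0763). The share of genes called higher in that comparison was 6.36%. In Y86C/Y86C the groups overlapped, at 12956, 13508 and 14349 CPM against 11827, 13525 and 12813. The change of 0.34 ± 0.08 (adjusted p = 0.000654) came to 0.09 with library totals.

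The level of B2m moved with that of a few other transcripts across libraries. Over the 73 libraries, after each table's mean was removed, Ubl5, a ubiquitin-like protein gene, had r = 0.82 with B2m, Rps24, a ribosomal protein gene, 0.80, and Ubd, another ubiquitin-like gene, 0.74. On TMM scaling, Rps24 itself was called higher in B6 Aire -/- (0.27), Y86C/Y86C (0.38) and +/C313Y (0.55). Ubl5 was called higher in Y86C/Y86C (0.23), +/C442G (0.49) and C442G/C442G (0.46). Its mean in Y86C/Y86C was 299 CPM against 304 in wild type, so that rise was not seen in mean CPM. What these genes share with B2m was not tested. Patl2, which covers B2m on the opposite strand, was called lower in +/C442G (-1.07) and C442G/C442G (-1.45), at 5.96 and 4.10 CPM, far below B2m. In the C313X line B2m varied widely between wild types (4173, 6533 and 2714 CPM), and its change in homozygotes was 0.16 ± 0.25.

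H2-D1 encodes the D heavy chain. It was at 3816, 3714 and 3714 CPM in wild type of the B6 null line and 4176, 3838, 4061 and 4185 in Aire -/-. The groups lay apart, with a rise of 0.22 ± 0.07 (adjusted p = 0.0145) that was lost without the wild-type library titled Aire_wt_432 (0.0509) and with library totals (0.183). In the Y86C line it was at 3552, 4519 and 4274 CPM in wild type, 4672, 3794 and 4440 in +/Y86C and 5418, 4933 and 4784 in Y86C/Y86C. Homozygotes lay above the other 6, and the rise of 0.54 ± 0.10 (adjusted p = 4.04e-05) held in all 11 alternatives tried, library totals included (0.29).

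In C442G/C442G, H2-D1 ran from 4446 to 5090 CPM, median 4650, just above 4444, 4286 and 3706 in wild type. The rise of 0.37 ± 0.12 (adjusted p = 0.00921) was lost without wild-type library 89 (0.0605) and with library totals (0.211). In +/C442G it was 0.33 ± 0.12 (adjusted p = 0.0359), with 4154 to 5126 CPM over 5 libraries that overlap the wild types, and 8 of 13 alternatives lost it, among them RLE scaling (0.0764) and library totals (0.191). NOD Aire -/- libraries had 5632, 5931 and 5831 CPM against 4720, 5135 and 5359 in Aire +/-, wholly above, with a change of 0.34 ± 0.15 that did not pass (adjusted p = 0.149). H2-D1 lay wholly above its control in 7 of 13 comparisons, among them +/C313X, +/V303M and -/C313Y, where it was not called. The share of all genes doing so was 15.4% in B6 Aire -/-, 15.0% in Y86C/Y86C, 11.2% in C442G/C442G and 12.7% in -/C313Y. It was 9.56% in +/C313X, 9.26% in NOD Aire -/- and 2.32% in +/V303M.

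H2-K1, the K heavy chain, was called once. In the Y86C line it was at 3356, 4010 and 3718 CPM in wild type and 3782, 3889 and 4015 in Y86C/Y86C, which overlap. The change of 0.32 ± 0.08 (adjusted p = 0.00129) was 0.07 with library totals (0.455). On NOD its counts were 796 to 3100 CPM, and NOD carries another K allele than the B6 reference genome. What that does to mapping was not tested, and no level is compared between strains.

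**Figure D4:**
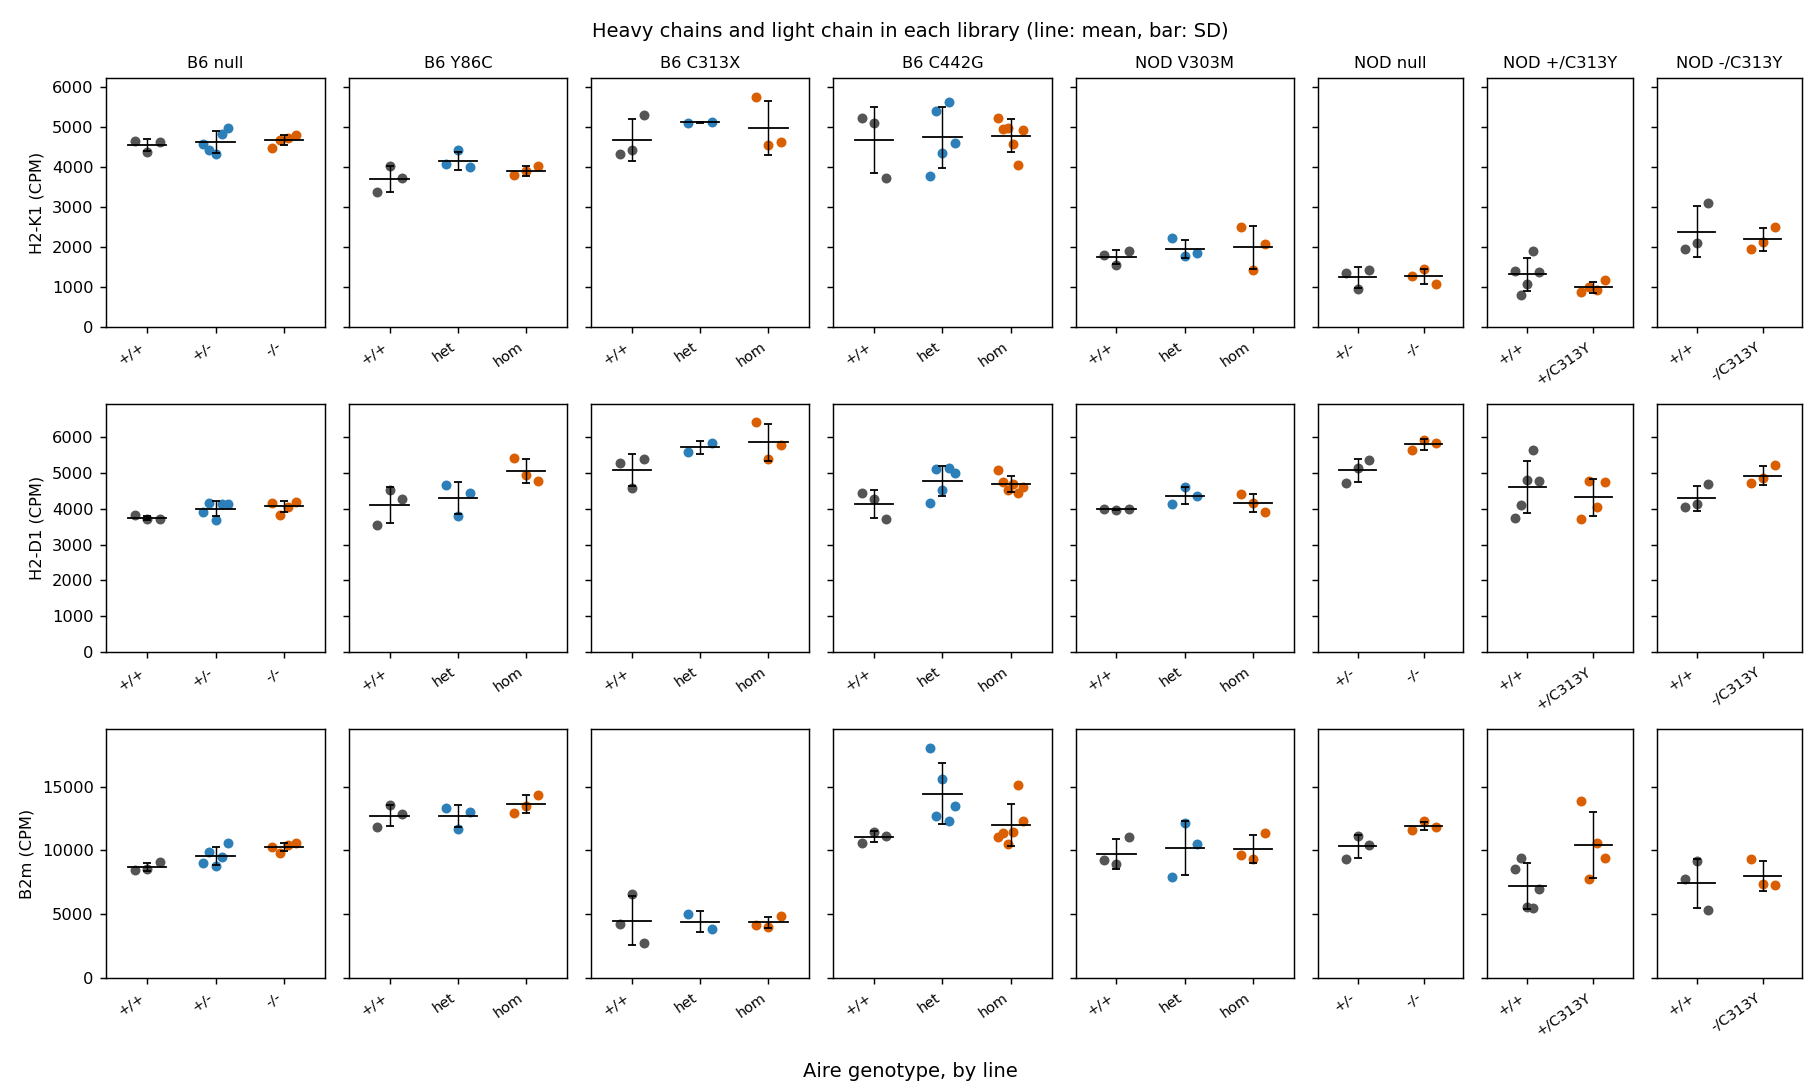
The heavy chain genes H2-K1 and H2-D1 and the light chain gene B2m in CPM in each of the 73 libraries, by line and genotype; points are libraries, lines means and bars SD. In the B6 null line B2m lies at 9793 to 10574 CPM in Aire -/- against 8446 to 9047 in wild type, and H2-K1 overlaps between genotypes in every line.

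Against wild type, immunoproteasome genes were called in 2 lines on TMM scaling and in none with library totals. In Y86C/Y86C, Psmb10 rose by 0.42 ± 0.09 (adjusted p = 0.000275), with 1156, 1124 and 1338 CPM against 1031, 1120 and 1060 in wild type. Psmb9, at 414, 420 and 411 against 373, 379 and 407 CPM, rose by 0.35 ± 0.08 (adjusted p = 0.000853). Both sets of libraries lay just apart. Psmb8 was at 540, 577 and 544 CPM against 508, 582 and 546, inside the wild-type range, and its change of 0.27 ± 0.09 (adjusted p = 0.0143) was 0.02 with library totals.

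In C313X/C313X, Psmb10 was at 1506, 1654 and 1474 CPM, against 1350, 1186 and 1314 in wild type and 1255 and 1352 in +/C313X. Homozygotes lay above the other 5 libraries, and the change was 0.47 ± 0.13 (adjusted p = 0.0262), lost in 4 of 11 alternatives: library totals (0.11), and without wild-type library 6 (0.0978), homozygous library 1 (0.0887) or homozygous library 10 (0.113). In Aire -/- of the B6 null line it was at 1159, 1134, 1312 and 1091 CPM against 1231, 1166 and 1236, with a change of 0.05 ± 0.08. The constitutive counterparts Psmb5, Psmb6 and Psmb7 were not called in any of the 13 comparisons. Of 14 constitutive core subunit genes, 6 were called higher on TMM scaling in Y86C/Y86C, where 21.7% of all genes were. Psma3 (0.46) and Psmb2 (0.44) led them (list median 0.17, all genes -0.03).

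Nlrc5, the class I transactivator, was at 87.2, 76.2 and 84.8 CPM in wild type of the Y86C line and 75.5, 85.8 and 92.8 in Y86C/Y86C. The groups overlapped, and its only call (0.27 ± 0.11, adjusted p = 0.0415) held in 4 of 11 alternatives and came to 0.02 with library totals. In NOD Aire -/- it was at 59.9, 46.6 and 47.5 CPM against 65.8, 72.3 and 74.7, wholly below, with a change of -0.32 ± 0.18 that did not pass (adjusted p = 0.303).

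By genotype, Y86C/Y86C had 9 of the 10 genes called higher and 1 lower, with a median change of 0.33 against -0.03 over all genes, but 2 higher and 1 lower with library totals. B6 Aire -/- had 4 higher (median 0.19), +/C442G 3 (0.13), C313X/C313X 2 (0.29), C442G/C442G 2 (0.12) and -/C313Y 1 (0.06). Tapbp was the one gene called in all 6 of these, and +/C313Y, with B2m higher and Tap1 lower, was the other genotype with a called member. The shares of all genes called higher were 21.7% in Y86C/Y86C, 17.7% in B6 Aire -/-, 13.1% in +/C442G and 7.85% in C313X/C313X. They were 19.5% in C442G/C442G, 9.83% in -/C313Y and 6.36% in +/C313Y. The counts of 2, 1 and 1 of 10 called higher there lie near these last shares.

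No member was called in 6 comparisons. In B6 Aire +/-, edgeR called 0.48% of genes and 0 members (2 at unadjusted p under 0.05, DESeq2 0), and in +/Y86C 3.37% and 0 (2, DESeq2 0). It called 0.0% of genes in +/C313X and 0.0% in +/V303M, and 0.0657% in V303M/V303M, with 0 members in each by edgeR and by DESeq2, and with 0 members at unadjusted p under 0.05. In NOD Aire -/- against Aire +/- edgeR called 13.3% of genes and 0 members (2 at unadjusted p under 0.05, DESeq2 0). Fitting those 6 libraries alone called 3 members higher there, B2m (0.34), H2-D1 (0.33) and Tap2 (0.32), so the missing calls in that line depend on the fit.

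Homozygotes were also set against heterozygotes. Called members were Tapbp and B2m (0.19 ± 0.06, adjusted p = 0.0184) in the null line, with 16.3% of genes called higher. In the Y86C line they were Tapbp, H2-D1 (0.42), B2m (0.30), Psmb10 (0.30) and Psmb9 (0.23), with 16.0%, and in the C313X line Tapbp and Psmb10 (0.49 ± 0.15, adjusted p = 0.0442), with 5.58%. In the C442G line edgeR called 20.5% of genes and 0 members (1 at unadjusted p under 0.05), while DESeq2 called Tapbp higher (0.23). In the V303M line edgeR called 0.0% of genes and 0 members (0 at unadjusted p under 0.05), and DESeq2 called 0 members.

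The difference between lines was itself tested in a joint fit of the 4 B6 tables. Psmb10 was the 1 member called: its change in C313X/C313X exceeded that in Aire -/- by 0.50 ± 0.15 (adjusted p = 0.0461), with 1.91% of genes called higher, and 15 of 23 alternatives lost the call. The change of Tapbp in Y86C/Y86C exceeded that in Aire -/- by 0.50 ± 0.15 without passing (adjusted p = 0.0578, interval 0.21 to 0.79), where edgeR called 2.0% of genes and 0 members (4 at unadjusted p under 0.05). Fitted with those 2 lines alone, Tapbp (0.44) and Psmb10 (0.42) were called there. C442G/C442G against Aire -/- (2.91% of genes) and +/C442G against Aire +/- (5.75%) gave 0 members by edgeR, with 1 at unadjusted p under 0.05 in each. A p that misses the threshold does not show that the lines act alike: the change of Tap2 in C442G/C442G minus that in Aire -/- was -0.51 ± 0.18 (adjusted p = 0.107), and was called with library totals (-0.65, adjusted p = 0.0282). DESeq2 was not run on these differences. The change of Tapbp in +/C442G minus that in Aire +/- was 0.40 ± 0.14 (adjusted p = 0.0743).

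With library totals only, the median of all genes shifted to -0.28 in Y86C/Y86C, -0.23 in C313X/C313X, -0.21 in C442G/C442G, -0.17 in NOD Aire -/-, -0.16 in -/C313Y, -0.12 in +/C442G, -0.11 in B6 Aire -/- and -0.10 in +/C313Y, against values within 0.04 of 0 with TMM. Genes called higher and lower numbered 2886 and 3713 with TMM and 1685 and 5431 with totals in Y86C/Y86C, and 2252 and 2398 against 1650 and 3075 in B6 Aire -/-. In C442G/C442G they were 2655 and 3147 against 1559 and 4457, in C313X/C313X 1070 and 2077 against 627 and 2724, and in +/C442G 1784 and 1826 against 1102 and 2585. In NOD Aire -/- they were 582 and 1260 against 320 and 1569, in +/C313Y 880 and 1522 against 560 and 1814, and in -/C313Y 1359 and 1779 against 971 and 2255. Which scaling is nearer to the amount of transcript per cell was not tested. Tapbp lay above the median of all genes under both scalings in the 6 genotypes in which it was called, and Tap1 below it in both genotypes in which it was called. A change of scaling shifts all genes of a comparison by a like amount, so this order could hardly differ and is no separate support.

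**Figure D5:**
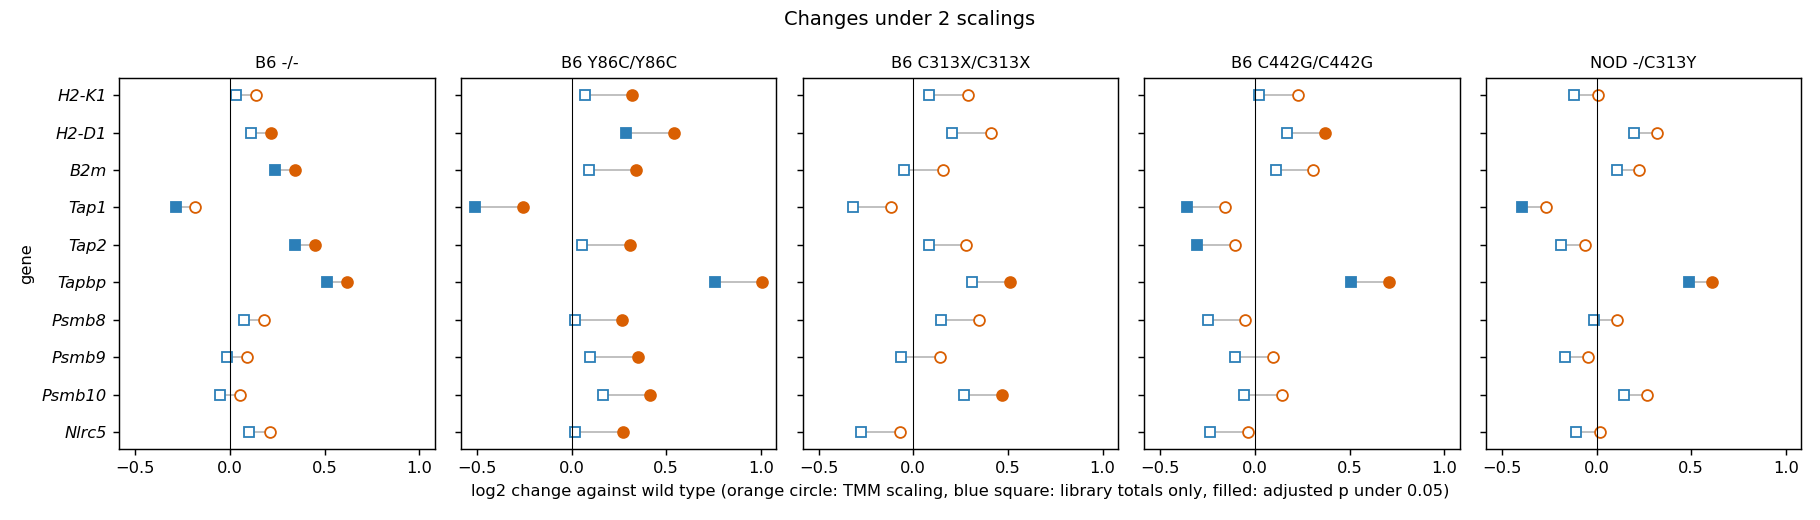
Log2 change against wild type of the 10 genes in 5 genotypes, with TMM scaling (orange circles) and with library totals only (blue squares); filled symbols have an adjusted p under 0.05. Every gene shifts left by a like amount within a genotype, Tapbp stays at 0.31 or higher (0.51 in Aire -/-, 0.76 in Y86C/Y86C), and Psmb9 in 3 panels, Psmb10 in 2 and B2m, H2-K1, Psmb8 and Nlrc5 in 1 each change sign without being called.

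Other parts of the presentation pathway gave a mixed picture beside the 10 genes. Of all genes, 17.7% were called higher and 18.9% lower in B6 Aire -/-. These shares were 21.7% and 27.9% in Y86C/Y86C, and 19.5% and 23.1% in C442G/C442G. All 9 class II genes on the list were called higher in B6 Aire -/- (median 0.52), Y86C/Y86C (1.13) and C442G/C442G (0.87), among them H2-Ob, a modulator of peptide exchange on class II (1.28, 1.65 and 1.32). Of 11 other loading and trimming genes tested, Y86C/Y86C had 6 higher, with Lnpep, a trimming peptidase, at 0.94 and Hspa5, a chaperone of the endoplasmic reticulum, at 0.51. B6 Aire -/- had 1 higher and 3 lower, among them Erap1, the trimming peptidase of the reticulum (-0.56), and Calr, a chaperone of the loading complex (-0.32), which rose in C442G/C442G (0.45). Psme2, a subunit of the proteasome activator, was called higher in Y86C/Y86C (0.25) and C313X/C313X (0.43). In mean CPM it was at 641 in Y86C/Y86C against 639 in wild type, and at 704 in C313X/C313X against 601. The calls of these lists are on TMM scaling, and small rises among them may not be seen in CPM.

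Many interferon-stimulated genes were called lower where Tapbp rose, and also in NOD Aire -/- and +/C313Y, where Tapbp was not called. Of 26 tested, 18 were lower and 3 higher in B6 Aire -/- (median -0.97, with 18.9% of all genes called lower), and 20 lower and 3 higher in C442G/C442G (-0.995, 23.1%), with Rsad2, an antiviral enzyme, at -2.28 and -2.94. In Y86C/Y86C it was 19 lower and 4 higher of 25 (-0.94, 27.9%), in C313X/C313X 8 lower and 1 higher of 26 (-0.62, 15.2%), and in +/C442G 16 lower and 3 higher of 26 (-0.57, 13.4%). On NOD, 17 of 26 were lower in Aire -/- (9.11% of all genes) and 16 of 26 in both +/C313Y (11.0%) and -/C313Y (12.9%). Of the 10 class I genes, which interferon also raises, Tap1 was the one called lower in any comparison on TMM scaling.

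Known regulators of class I genes split as well. Irf8, an interferon regulatory factor best known from myeloid cells, rose in B6 Aire -/- (1.30), Y86C/Y86C (1.64), C442G/C442G (1.47), NOD Aire -/- (0.87) and -/C313Y (1.20), and Irf2 rose in the first 3 (0.96, 1.52 and 1.053). Rfx5, a subunit of the factor that binds class I and class II promoters, rose in B6 Aire -/- (0.885) and C313X/C313X (0.68). Stat2 and Irf9, which act downstream of type I interferon receptors, fell by 0.77 and 0.72 in +/C313Y. Over the list of 19 tested, B6 Aire -/- had 6 higher and 3 lower (17.7% and 18.9% of all genes). Y86C/Y86C had 7 and 2 (21.7% and 27.9%), and C442G/C442G 8 and 2 (19.5% and 23.1%).

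Among other class I and class I-like genes, some with few reads fell. H2-T3, the thymus leukemia antigen, had 90 reads in the 3 wild types of the Y86C line and 12 in Y86C/Y86C, a change of -2.89. H2-Q1 had 16 to 33 reads in each of those wild types, 76 in all, and 0 in the 3 homozygotes, at least 30.4-fold lower when 3 counts summed over the homozygotes are taken as the floor (counting error only). It had 47 reads in wild type of the C442G line and 7 in C442G/C442G, or 6.56 and 0.343 CPM. H2-Q10 fell by 0.58 in B6 Aire -/- and by 0.85 in Y86C/Y86C, while H2-T23, the ligand of an inhibitory NK receptor, rose by 0.53 in B6 Aire -/-. Class I genes are alike in sequence, and how the authors' counting shares reads between them is not given in the sources used here, so these values are uncertain.

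Some markers of other cells were called, and some of the counts below lie near the shares of all genes. Those shares were 17.7% higher and 18.9% lower in B6 Aire -/-, and 21.7% and 27.9% in Y86C/Y86C. They were 19.5% and 23.1% in C442G/C442G, 7.85% and 15.2% in C313X/C313X, and 4.21% and 9.11% in NOD Aire -/-. The macrophage and dendritic list summed to 802 to 998 CPM in B6 wild type and 1091 to 1358 in Aire -/-, and to 814 to 863 and 1101 to 1269 in the Y86C line, but its members went both ways (in B6 Aire -/- 4 of 12 tested higher and 2 lower, in Y86C/Y86C 4 of 10 and 5). In C442G/C442G it summed to 1248 to 1379 CPM against 833 to 1054, with 4 of 11 higher and 6 lower (median -0.72). In C313X/C313X it summed to 1308 to 1437 CPM against 1306 to 2160, with 1 of 11 higher and 6 lower (median -1.40). Thymocyte markers were called lower for 5 of 11 in C313X/C313X (median -1.28), 4 of 8 in Y86C/Y86C, where 2 were higher, and 4 of 10 in NOD Aire -/- (median -1.31). The fibroblast and endothelial list summed to 122 to 145 CPM in Y86C wild type and 424 to 509 in Y86C/Y86C, where Dcn rose by 2.36 and Pdgfrb fell by 0.53, of 3 tested. Of 4 tested, 3 were higher in B6 Aire -/- and 2 in C442G/C442G, with 0 lower in both. Markers known from cortical epithelium, among them Ccl25 and Tbata, summed to 3728 to 4131 and 6905 to 7972 CPM in the Y86C line, where 3 of 5 tested were higher and Cxcl12 fell by 1.52, with Psmb11, the cortical proteasome subunit, at most at 8.28 CPM in any library. The part of these cells or genes in the changes of the 10 genes was not tested.

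The genes whose pattern was most like that of each member were taken from 11671 genes over the 73 libraries, as Pearson correlations of log2 CPM after each table's mean was removed. They are a description, since libraries share depth and genotype. Tapbp was nearest to Aplp2 (0.82), Stat5b (0.81) and Ncf1 (0.80). Tap1 was nearest to Col5a3 (0.84), Oas3 (0.82), an interferon-stimulated gene, and Adgrb1 (0.82), and H2-D1 to the class II genes H2-Aa (0.71) and H2-Eb1 (0.68) and to Tbkbp1 (0.67). H2-K1 was nearest to Tpt1 (0.78), Hspg2 (0.74) and Ewsr1 (0.74), and B2m to the 3 genes given with its levels. Nlrc5 was near Limd1 (0.68) and Zfp280d (0.67), and Tap2 was nearest to Maea (0.58), Abr (0.58) and Ccdc12 (0.58). Of the proteasome subunits, Psmb8 was nearest to Cyba (0.62), Aurkaip1 (0.58) and Edf1 (0.57), Psmb9 to Prdx5 (0.57), Hyal1 (0.54) and Bcl7c (0.50), and Psmb10 to Micall2 (0.62), Pold1 (0.61) and Actn3 (0.59). Among the 10 themselves, the correlation of Tap1 with Tapbp was -0.51 after each table's mean was removed and 0.04 after each group's mean was removed. On those 2 scales Psmb8 had 0.52 and 0.32 with Tap2 and 0.39 and 0.28 with Psmb9. H2-K1 had 0.49 and 0.35 with Tap2, and -0.45 and -0.46 with B2m.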

How the data were processed

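Sorted mTEChi were profiled by MARS-seq. Per the labels' protocols, thymi were digested with Liberase TH and DNase before sorting, and Dynabeads were used for RNA capture. The submitters' processing notes name mm10 and the tools STAR 2.4.2a, HTSeq, bcl2fastq, cutadapt and DESeq2. The use of strand and of molecular identifiers is not given in the sources used here.

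The authors deposited raw counts per gene and library in 6 tables, whose listed genes reach a count of at least 6 in some library. These were used, and 148 further columns of values derived from the same libraries were not.

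Testing used edgeR (version 4.0.16, R 4.3.3), with TMM factors, the filterByExpr filter and a robust quasi-likelihood fit of each table's groups together. Differences between B6 lines came from a joint fit over 14547 genes. P-values were adjusted by Benjamini-Hochberg over the tested genes, and the fit was tested on simulated data. The alternatives were RLE factors, DESeq2 (version 1.42.0), no filter, the compared groups alone, other NOD wild types, each library left out, a replicate block and, chosen after seeing the data, library totals only.

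Members and lists were chosen with earlier results of these data known. The text names all 10 members, Aire, some of the genes that a rule gave for the other lists (up to 2 called genes per comparison with the largest change and a mean of at least 5 CPM), and the 3 genes nearest each member in pattern. Some genes that these rules gave are not reported here. Psmb5, Psmb6, Psmb7, H2-T23, neighbouring genes, Psme2 and H2-Q10 in Y86C/Y86C, Calr in C442G/C442G, Rfx5 in B6 Aire -/- and single markers were named after their values were seen.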

Additional observations from a re-analysis of the deposited data

Results flagged for a closer look

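Psmb9, the immunoproteasome subunit, stood at 245.5 CPM in the B6 Aire +/- library titled Aire_het_433, below the other 4 libraries of that group (313.7 to 339.4 CPM). Its gap to the other libraries was wide for the range of the group. Of 60 pairs of a member and a group of 4 to 10 libraries, 1 stood out in this way, and chance alone gives about 1 in 20.

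Psmb10 changed more in C313X/C313X than in Aire -/- of the B6 null line, by 0.503 on the log2 scale in the interaction term of edgeR. It was at 1506, 1654 and 1474 CPM in C313X/C313X and 1350, 1186 and 1314 in wild type, and at 1159, 1134, 1312 and 1091 CPM in Aire -/- and 1231, 1166 and 1236 in wild type. The adjusted p was 0.0461, and over the alternatives it ran from 0.0245 to 0.209.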

How the results depend on the processing

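Of 3250 alternative values of member changes, 3140 kept their side of the threshold (210 of them changed sign, below the threshold in both fits), 75 lost a call, 35 gained one and 0 called changes reversed. Members called were, with library totals, 3 in Y86C/Y86C, 0 in C313X/C313X and 2 in -/C313Y against wild type; against heterozygotes 1 in the null line, 3 in Y86C, 1 in C313X and 1 in C442G; and for differences 0 for C313X and 1 for C442G. DESeq2 gave 2 in -/C313Y and 1 in C442G/C442G against heterozygotes. Only the compared groups gave 3 in NOD Aire -/-, and 1 each against heterozygotes in the null and C313X lines. All 8 NOD wild types gave 3 for Aire -/- and 3 for -/C313Y. Only the lines compared gave 2 for Y86C (Psmb10, Tapbp) and 0 for C313X, and RLE gave 0 for C313X.

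Genes called were, with DESeq2, 291 in +/Y86C, 2 in +/V303M, 41 in V303M/V303M and 6 against its heterozygotes. With only the compared groups they were 1, 1 and 1384 (V303M/V303M against wild type and heterozygotes, and +/C313Y), against all 8 NOD wild types 4447 in Aire -/-, and with the lines compared alone 747 (Y86C) and 55 (C313X). RLE split called differences as 77 higher and 134 lower (Y86C), 135 and 237 (C442G/C442G) and 231 and 599 (+/C442G), against 162 and 129, 226 and 197, and 326 and 511 with TMM. Library totals split them as 29 and 288, 79 and 384, and 167 and 688, and 76 and 206 for C313X against 278 and 114. Against heterozygotes totals gave 1514 and 2825 (null), 1173 and 4263 (Y86C), 400 and 2317 (C313X) and 516 and 2199 (C442G), against 2068 and 2219, 2133 and 3057, 761 and 1646, and 872 and 1926. In +/Y86C the split was 309 and 139 with TMM, 199 and 204 with totals and 241 and 50 with DESeq2.

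Leaving out 1 library at a time gave these ranges of members and genes called: Aire +/- 0 to 0 and 15 to 82; Aire -/- 3 to 5 and 3958 to 4464; +/Y86C 0 to 2 and 218 to 461; Y86C/Y86C 7 to 10 and 6064 to 6478. +/C313X had 0 and 0 to 1, C313X/C313X 0 to 2 and 2072 to 2950, +/C442G 2 to 3 and 2889 to 3717, and C442G/C442G 1 to 3 and 5105 to 5609. +/V303M had 0 and 0 to 1, V303M/V303M 0 and 0 to 60, NOD Aire -/- 0 and 1403 to 1543, +/C313Y 1 to 2 and 1971 to 2775, and -/C313Y 1 to 1 and 2429 to 2906. Against heterozygotes these were 1 to 3 and 3766 to 4150 (null), 4 to 4 and 4649 to 5125 (Y86C), 0 to 2 and 1169 to 2138 (C313X), 0 to 1 and 2555 to 2774 (C442G), and 0 and 0 to 5 (V303M). Differences from the null line gave 0 to 1 and 79 to 301 (Y86C), 0 to 1 and 162 to 928 (C313X), 0 and 217 to 464 (C442G/C442G), and 0 and 516 to 905 (+/C442G).

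The -/C313Y libraries and their wild types share replicate numbers 1 to 3. The numbers did not pair them (correlations of deviations 0.0729, -0.0546 and 0.187). With a replicate block 1 member and 3608 genes were called, against 1 and 3138. Mutant 1 correlated best with wild type 2, mutant 2 with wild type 1 and mutant 3 with wild type 3. Among the other comparisons with control, only +/Y86C shares a number with its wild type, 3, held by 1 library of each. That number alone could not pair the groups, and it was not checked.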

Other observations

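A library of the B6 null line, titled Aire_wt_438 but with the genotype label Aire -/-, entered no group. Its levels in CPM were 477 for Tapbp, 288 for Tap1, 9038 for B2m, 3740 for H2-D1, 4511 for H2-K1 and 136 for Tap2. Psmb8 was at 549, Psmb9 at 293, Psmb10 at 1236, Nlrc5 at 60.1 and Aire at 2264 CPM. For Tapbp, wild-type libraries of that line held 455 to 475 CPM and Aire -/- libraries 608 to 727. For Tap1 these ranges were 276 to 297 and 212 to 254 CPM, and for B2m 8446 to 9047 and 9793 to 10574. For Tap2 they were 113 to 116 and 122 to 165 CPM, so there the library lay inside the Aire -/- range. Its Psmb8 and Nlrc5 lay below both groups (lowest library 574 and 62.7 CPM).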
